A study of Mus musculus with 2 samples.

Results

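The 38 genes described here encode the machinery of the endoplasmic reticulum (ER) that imports, folds, modifies and disposes of proteins. They were picked by symbol, and all 38 symbols were found among the 32285 features of both count matrices. By role they are 8 chaperones or chaperone partners, 3 DnaJ cochaperones, 7 enzymes of disulfide bond formation and proline isomerisation, 9 genes of ER-associated degradation (ERAD), the transcription factor gene Xbp1, 3 subunits of the Sec61 translocon, 4 translocon-associated (Ssr) subunits and 3 signal peptidase subunits.

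Secreted and membrane proteins enter the ER through the Sec61 channel, where signal peptidase removes the signal peptide and chaperones and disulfide isomerases fold the chain. Chains that fail to fold are drawn back into the cytosol by ERAD and destroyed by the proteasome. When unfolded protein builds up, the membrane-bound factor ATF6 travels to the Golgi, is cut there by site-1 and site-2 protease, and enters the nucleus, where it binds the promoters of chaperone genes together with the factor NF-Y. Mbtps1, the gene altered in the knockdown tumour, encodes site-1 protease.

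The series holds 2 droplet single-cell RNA libraries from dissociated mouse tumours grown from the colon cancer line MC38. One library carries the label Mbtps1 WT and is called control here. The other carries Mbtps1 KD and is called knockdown, although the series text speaks of a knockout. The labels give no age, strain, host genotype, number of animals pooled or way in which Mbtps1 was altered. Each group holds 1 library, so no difference below has a replicate check, no test was made, and every 95% interval covers counting error only.

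Barcodes resembling empty droplets were removed, as were 364 control and 669 knockdown cells resembling simulated doublets. Doublets that escaped this step were not counted. The 11189 control and 15496 knockdown cells kept had a median of 8160 and 5133 UMIs (molecular tags that count captured RNA molecules), and 48 barcodes occurred in both libraries. The knockdown library was the shallower one in each class compared. Clusters were named from marker genes into tumour-like cells (4513 control and 7297 knockdown cells, with a median of 21453 and 13336 UMIs), macrophage/monocyte-like cells (4674 and 4817), T-like cells (482 and 1343), NK-like cells (270 and 467) and smaller classes. In tumour-like cells, 9 of 17 tumour markers reached 20 CPM (UMIs of a gene scaled to the total of its class and library) in control and 10 in knockdown, and all 16 macrophage markers did so in macrophage/monocyte-like cells of both libraries. Mbtps1 itself stood at 28.7 CPM in tumour-like cells of control and 12.3 CPM in those of knockdown (ratio 0.427, 0.399 to 0.456). In macrophage/monocyte-like cells it stood at 19.4 and 18.5 CPM, and the interval of that ratio, 0.839 to 1.09, holds 1.

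In tumour-like cells most of the ER genes had lower levels in the knockdown library. Of the 38 genes, 37 had at least 50 UMIs over both libraries, and Derl3 had 1 UMI in each. The ratio of knockdown to control CPM lay below 1 for 29 of the 37, with the whole interval below 1 for 28, above 1 for 5 and holding 1 for 4. The median log2 ratio of the 37 was -0.22, beside 0.07 over the 15290 genes that passed the same filter. A gene was counted as lower where the ratio was 0.8 or less, and as higher where the inverse ratio, control over knockdown, was 0.8 or less. By this rule 9 of the 37 (24.3%) were lower, beside 11% of all genes tested, and 0 were higher, beside 22.2%. Over genes of at least 20 CPM in 1 library, a range closer to that of the members, those shares were 8.51% and 10.6%. With ratios divided by the median ratio of all genes, 13 members were lower and 0 higher, beside 14.9% and 18.5% of genes. At a fold of 1.5 no member was lower, beside 4.22% of genes, and none was higher, beside 11.2%. Together the 38 genes took 7875 CPM in control and 6995 CPM in knockdown (0.888, 0.886 to 0.891).

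The chaperones split. Hspa5 encodes BiP, the main Hsp70 chaperone of the ER lumen, and stood at 580.3 CPM in control and 447 CPM in knockdown (0.771, 0.761 to 0.780). Sdf2l1, which encodes a partner of the BiP and DnaJ cycle, had the lowest ratio of all members, with 25.5 CPM in control and 17.5 in knockdown (0.687, 0.646 to 0.730). Creld2, an ER protein induced by folding stress, stood at 37.9 and 28.1 CPM (0.742, 0.707 to 0.779). Manf, a secreted and ER-resident cofactor of BiP, stood at 286 and 221 CPM (0.774, 0.760 to 0.787). These 4 genes were the chaperones with ratios at or below 0.8. In the GENCODE annotation of GRCm38, Hspa5 lies at chr2:34771970-34777547 on the + strand and Sdf2l1 at chr16:17130138-17132383 on the - strand. The lectin and Hsp90-type chaperones and Hyou1 lay above 0.8. Hsp90b1, which encodes GRP94, stood at 949 CPM in both libraries (ratio 1.0, 0.991 to 1.01). Calr, encoding the lectin chaperone calreticulin, stood at 549.6 and 503 CPM (0.916, 0.905 to 0.927). Canx encodes calnexin, the membrane-bound partner of calreticulin, and had the highest ratio of all 37 genes, with 233 CPM in control and 276 in knockdown (1.19, 1.17 to 1.21). Hyou1, which encodes the large Hsp70-like GRP170, was also higher in knockdown, at 10.9 and 12 CPM (1.1, 1.02 to 1.20).

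The 3 DnaJ cochaperones, which pass clients to BiP and stimulate its ATPase, had ratios between 0.835 (Dnajb9) and 0.860 (Dnajc3), with Dnajb11 between them at 0.856 and all 3 intervals below 1. None reached 0.8. Among the folding enzymes the lowest was Ppib, the proline isomerase cyclophilin B, at 793 CPM in control and 618 in knockdown (0.780, 0.771 to 0.788). The disulfide isomerase genes followed in the order Pdia6 (0.810), P4hb (0.850) and Pdia3 (0.861), and the intervals of P4hb (0.838 to 0.863) and Pdia3 (0.848 to 0.875) overlapped. Pdia6 lay just outside the threshold, as Ppib lay just inside it. Pdia4, at 97.5 and 98.2 CPM, had an interval that holds 1 (0.979 to 1.04). The oxidases that recharge these isomerases differed, with Ero1l (also called Ero1a) at 128 and 112 CPM (0.874, 0.853 to 0.897) and Ero1lb at 4.08 and 4.67 CPM (1.14, with an interval that begins just above 1).

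**Figure D1:**
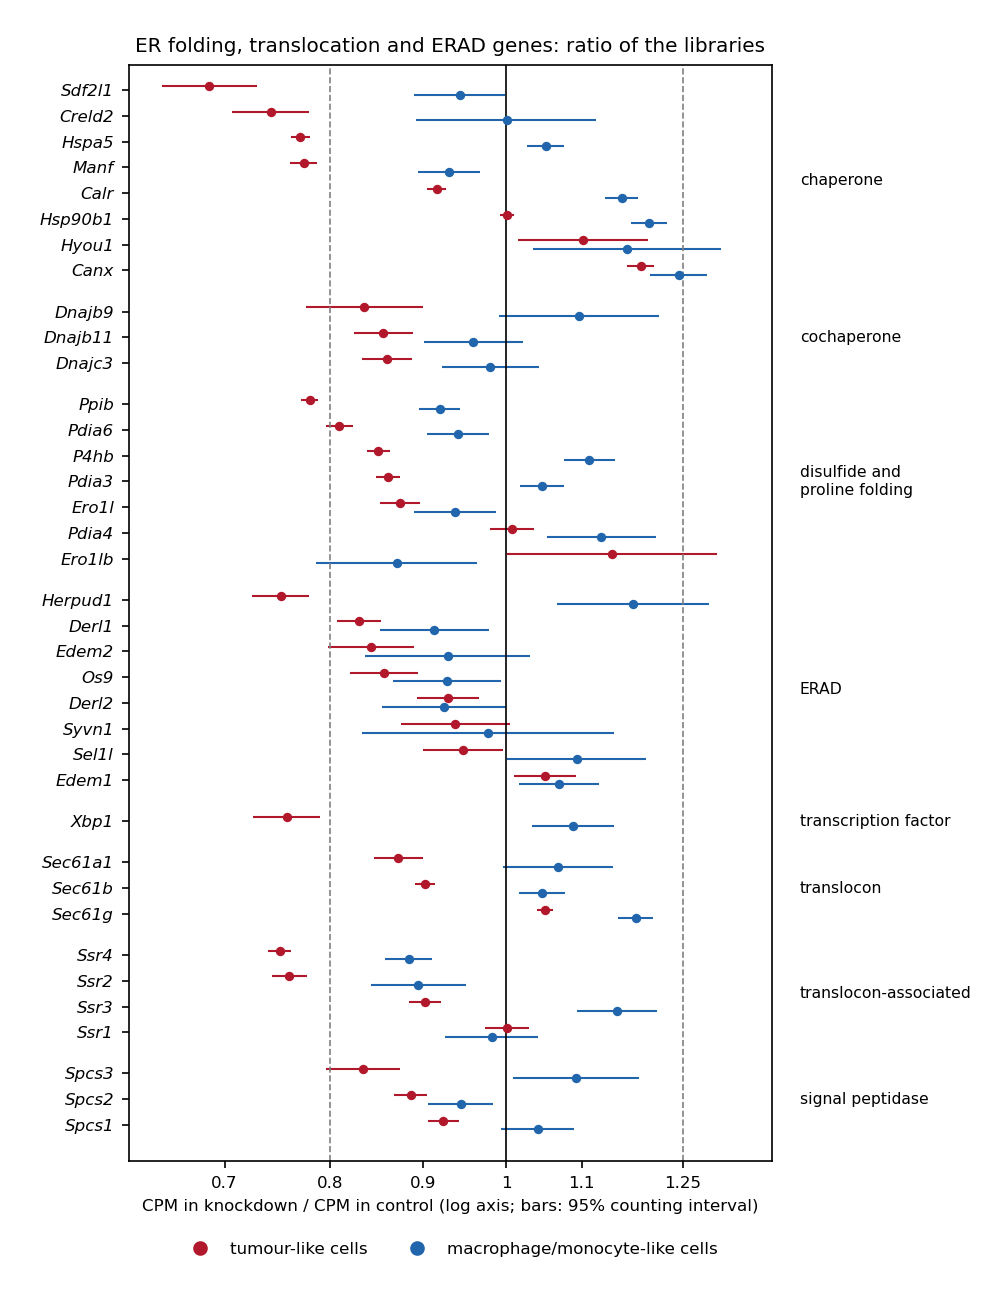
Ratio of CPM in the knockdown library to CPM in the control library (log axis) for 37 genes grouped by role, in tumour-like and in macrophage/monocyte-like cells, 1 library per group. Bars are 95% counting intervals and dashed lines mark 0.8 and its inverse. In tumour-like cells 9 genes lie at or below 0.8, and in macrophage/monocyte-like cells none does.

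Among the ERAD genes, Herpud1 stood out with 68.3 CPM in control and 51.3 in knockdown (0.751, 0.725 to 0.779). It encodes a membrane protein that gathers the ubiquitin ligase complex. The other 7 ERAD genes tested lay above 0.8. The derlin Derl1, a membrane component of the export channel, stood at 107 and 88.7 CPM (0.830), while its relative Derl2 had a ratio of 0.929. The lectins that select misfolded glycoproteins were lower for Edem2 (0.842) and Os9 (0.857) and higher for Edem1 (1.05, 1.01 to 1.09). The core ligase pair was near level, with Sel1l at 0.947 and Syvn1, the ligase HRD1, at 0.937, and the interval of Syvn1 holds 1. Xbp1 encodes a factor whose mRNA is spliced by the sensor IRE1 and which activates ERAD and secretory genes. It stood at 49.1 CPM in control and 37.2 in knockdown (0.757, 0.726 to 0.790), and the counts do not separate its spliced from its unspliced form.

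At the import channel the subunits differed. Sec61a1, the pore subunit, stood at 83.4 and 72.8 CPM (0.872), Sec61b at 474 and 427 CPM (0.902), and Sec61g was higher in knockdown, at 705 and 741 CPM (1.05, 1.04 to 1.06). The 4 Ssr genes encode the TRAP complex beside the channel, and they divided evenly. Ssr4 stood at 412 and 309.6 CPM (0.751, 0.740 to 0.762) and Ssr2 at 175 and 133 CPM (0.760, 0.743 to 0.777). Ssr3 (0.902) was nearer to level, and Ssr1 stood at 102 CPM in both libraries (1.0, 0.974 to 1.03). The signal peptidase genes Spcs1 (0.923), Spcs2 (0.886) and Spcs3 (0.834) all had intervals below 1 and none reached 0.8.

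The promoters of these genes were searched for 3 motifs of the unfolded protein response. The ER stress element (ERSE), which NF-Y and ATF6 bind, is CCAAT and CCACG separated by any 9 bases. ERSE-II is ATTGG and CCACG separated by any 1 base, and the unfolded protein response element (UPRE) is TGACGTGG. Exact matches on both strands were sought in the 250 bases before the start of each gene in RefSeq (GRCm38.p6), where 32 of the 38 members were matched. Ssr2, Manf, Derl1, Spcs3, Sec61a1 and Hyou1 were not matched. ERSE occurred in 10 of the 32, beside 0.122% of 27025 promoters (33 in all), ERSE-II in 1 of 32 (Herpud1), beside 0.0333%, and UPRE in 0 of 32, beside 0.503%. No ERSE-II match lay inside an ERSE match, as the 2 occurred in different members. CCAAT alone, a part of ERSE, occurred in 24 of 32, beside 34.5%, and CCACG, a part of ERSE and ERSE-II, in 23 of 32, beside 28.2%. The matches below are shown 5′ to 3′ in the direction of the motif with up to 5 bases on each side, because genes with the same letters had ratios on both sides of 1. Capitals mark the whole match.
Hspa5: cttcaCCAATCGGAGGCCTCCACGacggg
Creld2: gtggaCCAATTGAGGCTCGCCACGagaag
Pdia6: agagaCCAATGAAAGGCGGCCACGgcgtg
Calr: atgggCCAATGAGGGTCGACCACGcgttg
Hsp90b1, far: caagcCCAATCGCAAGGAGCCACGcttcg
Hsp90b1, near: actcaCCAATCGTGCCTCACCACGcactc
Canx: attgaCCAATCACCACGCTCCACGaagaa
Herpud1 (ERSE-II): cgctgATTGGGCCACGttgga

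These windows lie, on GRCm38.p6, at chr2:34772020-34772048 on the + strand (Hspa5), chr15:88819515-88819543 on the - strand (Creld2), chr12:17266486-17266514 on the + strand (Pdia6) and chr8:84847070-84847098 on the + strand (Calr). Those of Hsp90b1 lie at chr10:86705633-86705661 on the - strand and chr10:86705528-86705556 on the + strand. That of Canx lies at chr11:50325795-50325823 on the - strand and that of Herpud1 at chr8:94386372-94386392 on the + strand. Counted to the RefSeq start, the Hspa5 match ends 46 bases before it, the Creld2 match 107, the Pdia6 match 79, the Calr match 143, the Hsp90b1 matches 193 and 88, the Canx match 126 and the Herpud1 match 41. The GENCODE gene of Hspa5 begins further upstream than the RefSeq start, so by that annotation the Hspa5 match lies inside the gene. In Creld2, in Calr and in the near match of Hsp90b1 the motif reads against the direction of the gene. Dnajc3, Ero1lb, Syvn1 and Derl3 each hold 1 further ERSE.

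Genes with and without an exact ERSE had overlapping ratios in tumour-like cells. Of the 9 tested genes with an ERSE, 2 (Creld2 and Hspa5) lay at or below 0.8, and their median ratio was 0.916, with a range from 0.742 (Creld2) to 1.19 (Canx). Among the 22 matched genes without one, 5 lay at or below 0.8 and the median was 0.868, with a range from 0.687 (Sdf2l1) to 1.05 (Sec61g). Hsp90b1, the member with 2 matches, had a ratio of 1.0. A match is a description of letters, and binding was not measured. Inexact matches were not sought, and Manf and Ssr2, both at or below 0.8, were among the unmatched genes. With so few genes, these values cannot show whether ERSE genes differ from the others.

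**Figure D2:**
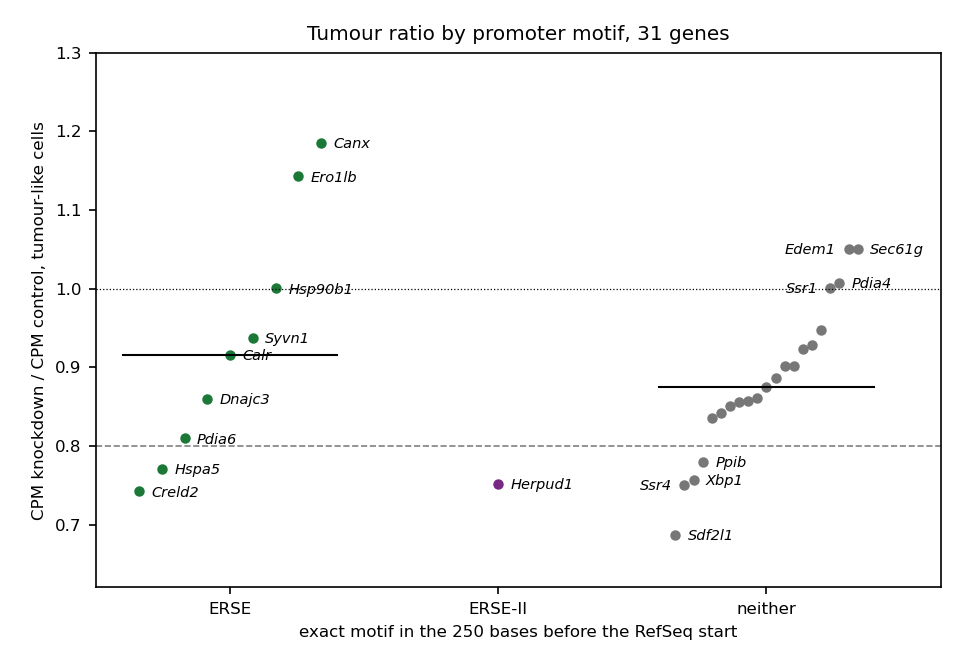
Ratio of CPM in knockdown to CPM in control tumour-like cells for 31 matched and tested genes, by the exact motif found in the 250 bases before the RefSeq start. Each point is 1 gene, horizontal bars are medians, the dashed line marks 0.8 and the dotted line marks equal levels. The genes with an ERSE run from 0.742 to 1.19 and those with neither motif from 0.687 to 1.05.

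The lower levels recurred within most tumour clusters. Tumour-like cells formed 8 clusters, and the median log2 ratio of the members was below 0 in 7 of them, from -0.07 (cluster 8) to -0.25 (cluster 11, led by Cxcl1, Ccn1, Fosl1 and Klf4). Hspa5 in cluster 11 stood at 765 CPM in control, its highest value in any tumour cluster and library, and at 463 CPM in knockdown (0.605, 0.585 to 0.626). In cluster 0, the most numerous, led by Hmga2, Afp and Phgdh, it stood at 593 and 451 CPM (0.761). Clusters 9 and 10, led by H19 and Ogn or by Pcdh9 and H19, gave Hspa5 ratios of 0.830 and 0.886. The exception was cluster 18, a small and shallow cluster (107 and 241 cells) led by long neural genes such as Tafa1 and Unc5d, where Hspa5 stood at 302 and 439.8 CPM (1.46, with the whole interval above 1) and the summed ER genes at 4446 and 5251 CPM (1.18, 1.13 to 1.23). Without that cluster the tumour median was -0.22 and 9 members were at or below 0.8, beside 11.4% of genes. Cluster 8 was shallow too, and less evenly so. Its median was 8226 UMIs in control and 1759.5 in knockdown cells, against 6179 and 5167 in cluster 18. In cluster 8, 10 of 36 members were lower, beside 8.85% of genes, and 3 were higher, beside 36.4%.

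Single members kept their direction across these clusters to different degrees. Herpud1 lay below 1 in 8 of 8 clusters, each time with the whole interval below 1, from 0.593 (cluster 18) to 0.832 (cluster 8). Sdf2l1 lay below 1 in all 7 clusters with enough counts, from 0.591 to 0.844, and Creld2 likewise in 7 of 7, from 0.596 to 0.913. For each of these 2 genes the whole interval lay below 1 in 6 clusters. Derl1, Sec61a1, Ssr4, Spcs2 and Spcs3 were below 1 in 8 of 8. Their whole interval lay below 1 in fewer, namely 5 for Derl1, 3 for Sec61a1, 7 for Ssr4, 6 for Spcs2 and 4 for Spcs3. Canx was above 1 in 8 of 8 clusters with every interval above 1, from 1.12 to 1.62. Sec61g was above 1 in 8 of 8, from 1.01 to 1.44, with the whole interval above 1 in 6. Ero1l lay on both sides of 1, at 0.618 in cluster 6 (led by Shisal2b, Phgdh, Cdc20 and Ube2c), 0.621 in cluster 11 and 1.19 in cluster 10.

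**Figure D3:**
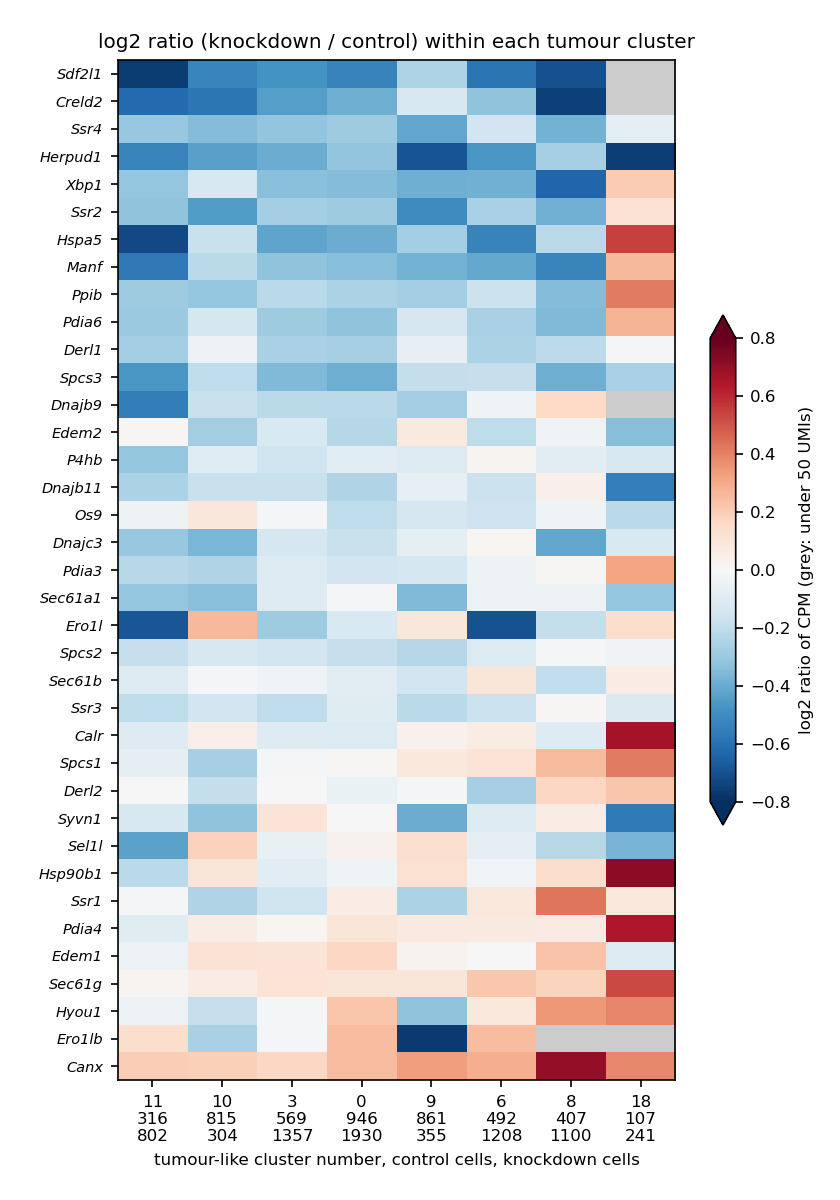
log2 ratio of CPM (knockdown over control) for 37 genes in each of the 8 tumour-like clusters, ordered from left to right by the median of the members. Under each cluster number stand its control and knockdown cells, and grey marks genes with under 50 UMIs. The top rows are below 0 in most clusters, Canx in the bottom row is above 0 in all 8, and cluster 18 goes the other way for Hspa5.

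The mix of tumour clusters differed between the libraries. Clusters 9 and 10 held 861 and 815 control cells but 355 and 304 knockdown cells, and their summed ER genes stood at 8845 and 8143 CPM in control. With each cluster given the same weight in both libraries, the median log2 ratio of the members was -0.15 and 8 members were at or below 0.8, beside 8.3% of genes. Ssr4 (0.812) and Ppib (0.841) then left that group and Spcs3 (0.797) entered it, while Hspa5 stood at 0.748, Sdf2l1 at 0.690, Herpud1 at 0.741 and Xbp1 at 0.795. Fibroblast markers also differed within the tumour class. Of 10 such markers, 4 reached 20 CPM in tumour-like cells of each library, none was at 0, and their sum was 732 CPM in control and 497 CPM in knockdown. The 16 macrophage markers summed to 354 and 325 CPM in tumour-like cells. The part of these signals in the lower levels was not tested.

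The ratios also differed with the depth of the cell. In tumour-like cells of 5000 to 10000 UMIs (319 control and 1170 knockdown cells) the median log2 ratio was -0.019 and 5 members were at or below 0.8, beside 15.9% of genes. Hspa5 stood at 1.01 there, Xbp1 at 1.02 and Creld2 at 1.07. In that range 32.3% of control but 12% of knockdown cells belonged to cluster 9, and 14.1% and 7.4% to cluster 18. With the clusters at the same weight in this range, Hspa5 stood at 0.715 and Xbp1 at 0.713, Creld2 stood at 1.01, and the median was -0.064. These reweighted values rest on few control cells in some clusters. Clusters 0, 3, 6 and 11 held 4.4%, 2.2%, 4.7% and 4.1% of the 319 control cells, against 19.8%, 15.6%, 20.5% and 4.9% of knockdown cells. Whether the cluster mix accounts for the ratios in this range was not tested. In cells of 10000 to 20000 UMIs the median was -0.29 with 17 members at or below 0.8, beside 18.7% of genes, and in cells of at least 20000 UMIs it was -0.19 with 12 members, beside 11.6%. Of the 9 members at or below 0.8 in all tumour-like cells, Herpud1, Ssr2, Ssr4, Manf and Ppib lay below 1 in all 3 ranges. So did Sdf2l1, though at 0.995 in cells of 5000 to 10000 UMIs.

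**Figure D4:**
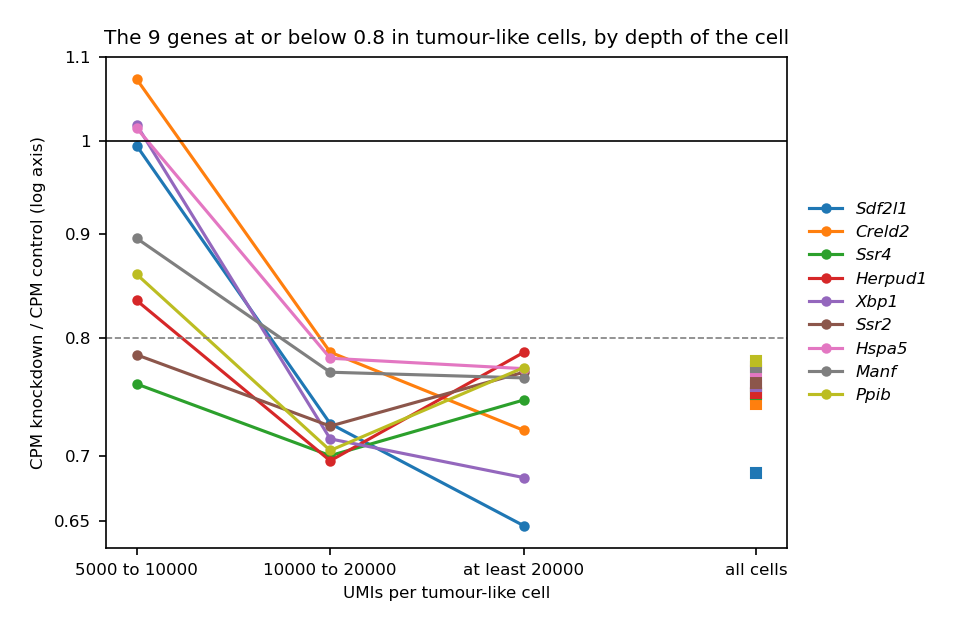
Ratio of CPM in knockdown to CPM in control (log axis) for the 9 genes at or below 0.8 in tumour-like cells, in cells of 3 ranges of UMIs (circles) and in all tumour-like cells (squares). The dashed line marks 0.8. Creld2, Xbp1 and Hspa5 lie above 1 in cells of 5000 to 10000 UMIs, and all 9 genes lie below 0.8 in both deeper ranges.

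Macrophage/monocyte-like cells, the largest class of host cells, did not show lower levels. The same 37 genes passed the filter, with 12 intervals below 1, 16 above 1 and 9 holding 1, and the median log2 ratio was 0.06 beside 0.04 over 12426 genes. No member was lower by the rule, beside 6.61% of genes, and none higher, beside 14.4%. Over genes of at least 20 CPM in 1 library, which hold 36 of the members, those shares were 2.78% and 6.03%. Together the 38 genes took 6765 CPM in control and 7128 CPM in knockdown (1.05, 1.05 to 1.06). Of the 8 chaperones 5 had intervals above 1. Canx stood at 212 CPM in control and 263 in knockdown (1.24, 1.20 to 1.29), Hsp90b1 at 548 and 657 CPM (1.20, 1.17 to 1.23) and Calr at 667 and 772 CPM (1.16, 1.13 to 1.18). Hspa5 was close to level, at 548 and 576 CPM (1.05, 1.03 to 1.08). The lowest members were Ero1lb (0.870), Ssr4 (0.884), Ssr2 (0.894), Derl1 (0.913) and Ppib (0.919), each with an interval below 1. Across 15 macrophage/monocyte clusters Hsp90b1, Calr and Sec61g were above 1 in 15 of 15 and Canx in all but 1. Hspa5 was above 1 with its whole interval in 5 clusters, led by cluster m3 (Cxcl1, Il1a, Ptgs2, Nlrp3), where it stood at 602 CPM in control and 889 in knockdown (1.48, 1.38 to 1.58). It was below 1 with its whole interval in the cycling cluster m4 (Top2a, Mki67), at 455 and 398 CPM (0.876, 0.814 to 0.942). Free RNA was estimated, from tumour genes, at 12.2% of UMIs in control and 18% in knockdown macrophage/monocyte-like cells, and with it subtracted the median was 0.08.

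Set against the macrophage/monocyte-like cells of the same libraries, most members had a lower ratio of knockdown to control in tumour-like cells. The tumour ratio divided by the macrophage ratio had an interval (95%, from the 4 counts) below 1 for 29 of 37 genes, above 1 for 1 (Ero1lb, 1.31) and holding 1 for 7. Its median was 0.862, beside 0.987 over 11806 genes that passed the filter in both classes. It was at most 0.8 for 10 members, beside 14.9% of those genes, and its inverse at most 0.8 for 1 member, beside 12.4%. The lowest were Herpud1 (0.640, 0.578 to 0.708), Xbp1 (0.696, 0.651 to 0.744), Sdf2l1 (0.729) and Hspa5 (0.733, 0.714 to 0.753). Canx, with similar ratios in both classes, came to 0.953 (0.916 to 0.992), and Ssr1 (1.02), Edem1 (0.982) and Syvn1 (0.959) had intervals that hold 1, as had Derl2.

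The lymphocyte classes were smaller, and most of their intervals hold 1 (27 of 37 members in T-like cells and 26 of 35 in NK-like cells). In T-like cells 6 members were lower, beside 14% of genes, and 2 higher, beside 19.1%. Sdf2l1, at 44.9 CPM in control and 31.3 in knockdown (0.697, 0.513 to 0.95), and Creld2 (0.708, 0.441 to 1.15) were the lowest. Dnajb9, at 12.8 and 22.0 CPM (1.71, 1.05 to 2.91), and Hsp90b1, at 336 and 433 CPM (1.29, 1.17 to 1.42), were the highest. In NK-like cells 9 of 35 members were lower, beside 14.4% of genes, and 2 higher, beside 22.3%. Hyou1 stood at 28.5 and 16.4 CPM (0.575, 0.327 to 0.982) and Sdf2l1 at 97.3 and 58.8 CPM (0.604, 0.453 to 0.799), while Dnajb9 (1.4) and Herpud1 (1.26) were highest with intervals that hold 1. Like Sdf2l1, Ssr2 (0.703), Ssr4 (0.739) and Manf (0.740) were at or below 0.8 in tumour-like cells too, and their NK intervals lay below 1. Creld2 stood at 0.789 with an interval that holds 1. Of the other genes lower in tumour-like cells, Ppib stood at 0.871 in NK-like cells. Hspa5, Herpud1 and Xbp1 had NK ratios above 1 with intervals that hold 1. The 4 Ssr genes summed to 785 CPM in control and 602 CPM in knockdown NK-like cells (0.767, 0.701 to 0.840). Xbp1, at 50.1 and 53.2 CPM in T-like and 62.2 and 72.9 CPM in NK-like cells, did not differ beyond counting error in either.

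Levels also differed between cell classes within each library. Of 8 classes with at least 100 cells in both libraries, the members together took most of the RNA in fibroblast-like cells, at 9339 CPM in control and 8597 in knockdown, and least in T-like cells, at 4989 and 4951 CPM. Fibroblast-like cells had the highest level in both libraries for 16 members, among them Hspa5 (772 and 653 CPM), P4hb (532 and 563) and Pdia3 (599 and 492). P4hb is also a subunit of the enzyme that hydroxylates collagen. Sdf2l1 was highest in macrophage/monocyte-like cells (99.0 and 93.3 CPM) and lowest in tumour-like cells in both libraries. Herpud1 (106 and 121 CPM) and Ero1lb (56.5 and 50.4 CPM) were highest in dendritic-like cells, and Xbp1 in endothelial-like cells (152 and 125 CPM). Xbp1 was lowest in tumour-like cells in both libraries. The control level of Sdf2l1 in NK-like cells, 97.3 CPM, lay within the counting interval of its level in macrophage/monocyte-like cells (95.5 to 103). The fibroblast- and dendritic-like classes hold clusters with leading markers of other classes, so they were not compared between libraries.

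**Figure D5:**
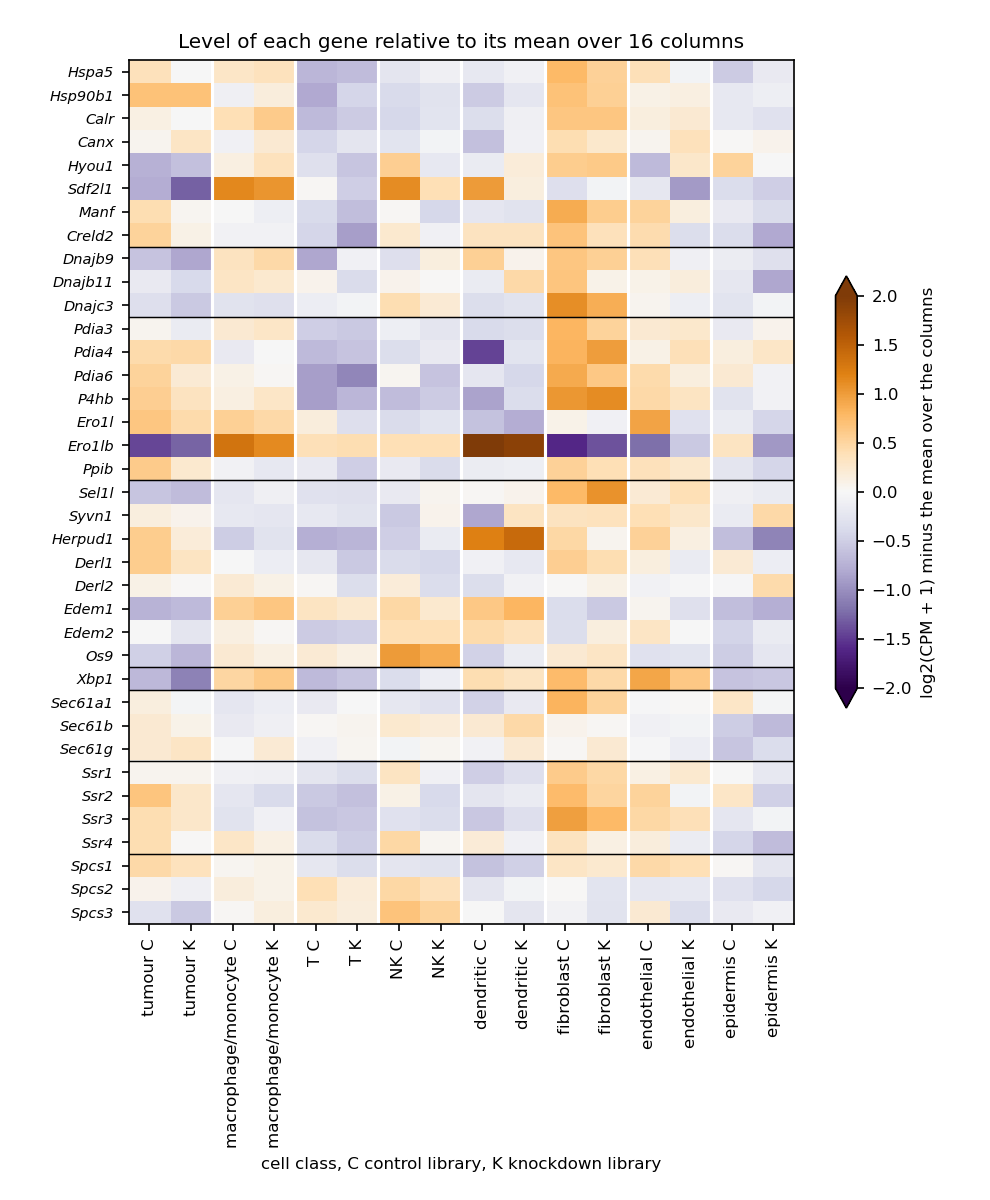
log2(CPM + 1) of 37 genes in 8 cell classes and both libraries, minus the mean of each gene over the 16 columns. C marks the control and K the knockdown library, and horizontal lines separate the roles. The fibroblast columns are above the mean for most genes, and Sdf2l1, Edem1 and Xbp1 are below it in both tumour columns.

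A further 98 genes of the same pathways were counted in tumour-like cells, of which 97 passed the filter. Of these, 22 were lower and 3 higher, beside the 11% and 22.2% of all genes given above. The retrieval receptors and the COPII coat, which carry cargo between ER and Golgi, had the most, with 7 of 13 lower and 1 higher. Kdelr3, a receptor that returns ER proteins from the Golgi, stood at 70.6 CPM in control and 32.0 in knockdown (0.453, 0.434 to 0.472), and Sec23b, a coat subunit, at 33.2 and 47.7 CPM (1.44). Other folding genes gave 6 lower and 1 higher of 29, from Fkbp14, a proline isomerase of collagens, at 13.6 and 4.4 CPM (0.324, 0.291 to 0.361), to Uggt1, which tests glycoprotein folding, at 53.2 and 67.6 CPM (1.27). Other ERAD genes gave 6 lower and 0 higher of 18, from Selenos, a partner of the derlins, at 84.6 and 50.4 CPM (0.596, 0.576 to 0.617), to Nploc4 (1.24). The oligosaccharyltransferase, which attaches glycans, gave 1 lower of 12 (Ostc, 216 and 152 CPM, 0.702) with Rpn1 highest at 1.09. Other translocation genes gave 1 lower of 7 (Tram1, 0.797) with Sec61a2 highest at 1.14, and the signal recognition particle gave 0 of 8, from Srp9 (0.810) to Srp19 (1.11). Among 10 sensors and factors of the unfolded protein response, Creb3 was lowest, at 40.5 and 26.1 CPM (0.645, 0.614 to 0.677), and Creb3l1 highest, with 36 UMIs in control and 63 in knockdown (1.80, 1.17 to 2.79). Atf6 stood at 29.5 and 28.6 CPM, a difference within counting error (0.967, 0.919 to 1.02). In macrophage/monocyte-like cells 2 of 96 such genes were lower and 12 higher, beside the 6.61% and 14.4% of all genes in that class.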

How the data were processed

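The authors deposited unfiltered UMI counts for 2 libraries, made by Cell Ranger 4 per the file headers. Sources used here name neither genome build nor strand setting. The members and lists were chosen with earlier results of these data known. Kept barcodes had at least 500 UMIs and 250 genes, no more than 20% mitochondrial UMIs, and differed from the empty-droplet profile (false discovery rate 0.01). Cells resembling simulated doublets were removed. Leiden clusters (2000 variable genes, 30 principal components, 15 neighbours, resolution 1, leidenalg 0.10.2) were named from marker lists. Tumour clusters had Xist below 20 CPM. The naming thresholds, set with the data in view, gave no name to 2.61% of cells in control and 4.07% in knockdown. Only 4 classes were compared between libraries, each with at least 200 cells in both. Leading genes were taken against clusters outside the lineage. No cluster of these classes had leading markers of another class without any of its own. UMIs were summed per class and library. Ratios carry exact conditional intervals, which were checked on simulated counts, and the ratio of 2 ratios carries a Wald interval. The text names members, and the lowest and highest gene of each further set. Atf6 was named in addition, after its value was seen. Libraries held 177399315 and 174190399 UMIs. Overlapping or near-identical genes (Sec61b with Gm10320, Hsp90b1 with Gm15344, Manf with Rbm15b, Ppib with Snx22, Syvn1 with Mrpl49) make those counts uncertain, as do antisense neighbours of Dnajb11, Pdia3, Pdia6, Herpud1, Derl2, Sec61a1, Spcs1, Spcs2 and Spcs3. Alternatives are given in the closing section, and 1 listed gene was not analysed here.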

Additional observations from a re-analysis of the deposited data

Results flagged for a closer look

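Hspa5, Herpud1 and Xbp1 were at or below 0.8 in tumour-like cells while their intervals lay above 1 in macrophage/monocyte-like cells of the same 2 libraries. The tumour ratio divided by the macrophage ratio was 0.733 for Hspa5, 0.640 for Herpud1 and 0.696 for Xbp1. With 1 library per group these differences were not tested. Other genes lower in tumour-like cells, namely Sdf2l1, Manf, Ssr2 and Ssr4, were at or below 0.8 in NK-like cells too, with intervals below 1.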

How the results depend on the processing

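The median log2 ratio of the members in tumour-like cells stayed below 0 under all 18 alternatives run. A median counted as moved where it left the range between the median lower and the median upper interval limit of the members. In tumour-like cells that range was -0.242 to -0.157, and it is not a confidence interval of the median. The median moved to -0.28 with ratios divided by the median of all genes and to -0.15 with tumour clusters at the same weight. It also moved to -0.019 in cells of 5000 to 10000 UMIs (-0.064 with clusters at the same weight) and to -0.29 in cells of 10000 to 20000 UMIs (-0.25). The count at or below 0.8 went from 9 to 5 (15.9% of all genes) and 17 (18.7%) in those 2 depth ranges and to 0 (4.22%) at a fold of 1.5. The count of higher members went from 0 to 1 with cells at equal weight (25.9% of all genes), 1 with cells thinned to 1000 UMIs (19.6%), 4 in cells of 5000 to 10000 UMIs (24.3%), 4 there with clusters at the same weight (19.8%) and 1 in cells of 10000 to 20000 UMIs (25.2%). In cells of 5000 to 10000 UMIs Hspa5 turned to 1.01, Creld2 to 1.07 (1.01 with clusters at the same weight) and Xbp1 to 1.02. In macrophage/monocyte-like cells the median moved to 0.17 in cells of 10000 to 20000 UMIs. The count of lower members there was 2 with thinned cells (9.97% of all genes) and 1 in cells of 5000 to 10000 UMIs (7.79%), and that of higher members was 3 (19.5%) and 9 (23.9%) in the 2 depth ranges, of 37 members. The causes were not tested. Same-weight depth ranges, cells of at least 20000 UMIs, removal of cluster 18 and the 20 CPM background were chosen after seeing the data. No paired analysis was possible because each group holds 1 library.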

Other observations

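Ero1l, the oxidase that recharges disulfide isomerases, spanned a wide range across macrophage/monocyte clusters. It stood at 506 CPM in control and 636 in knockdown in cluster m8 (led by Mmp12, Mmp13, Hmox1 and Adm) and at 322 and 352 CPM in cluster m16 (Nos2, Slc7a2). In cluster m2 (Fcrl5, Cd72, Slamf9) it stood at 49.1 and 40.7 CPM. In m8 its ratio was 1.26 (1.13 to 1.39), the highest of the 15 macrophage/monocyte clusters and the only one with its whole interval above 1. Over the whole class the ratio of Ero1l was 0.937 (0.889 to 0.987) in macrophage/monocyte-like cells and 0.874 in tumour-like cells.

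Plasma cells, in which Xbp1 and Derl3 are known to be high, were nearly missing from these libraries. The B/plasma-like class held 9 control and 13 knockdown cells. Of 28 Xbp1 UMIs in its control cells, 27 came from 1 cell, and the same class held 1 Derl3 UMI. Its knockdown cells held 0 Xbp1 UMIs.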
